A study of Mus musculus with 36 samples.

Results

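The regions described here are the H3K9me3 peaks that lay between genes but within 100 kb of an annotated transcription start site. They were chosen from the authors' table of H3K9me3 differences between CSE knockout and wild-type cells by 2 criteria, an annotation of distal intergenic and an absolute distance to the start site of at most 100 kb. Peaks higher and lower in the knockout were both taken. The rule gave 2451 members of 5374 listed H3K9me3 peaks. A further 470 intergenic peaks lay beyond 100 kb, 1602 peaks lay in introns and 663 at promoters.

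The study compared primary aortic smooth muscle cells of mice with a whole-body knockout of CSE (cystathionine gamma-lyase, the product of Cth, which makes hydrogen sulfide) with the same cells of C57BL/6N wild-type mice. Both genotypes had received angiotensin II, a vasoconstrictor peptide hormone, at 1 µM for 24 hours, so no untreated cells enter the comparison. ChIP-seq, the sequencing of DNA pulled down with antibodies to a histone mark, covered H3K9me3, H3K9ac and H3K4me3, with 3 immunoprecipitated and 3 input libraries per genotype and mark. The labels do not say whether these libraries came from separate animals or cultures. The strain background of the knockout mice is not given in the labels, and the deletion was not limited to smooth muscle. Because the cells were measured in bulk, fewer cells carrying the mark and less mark per cell cannot be told apart.

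H3K9me3, histone H3 trimethylated at lysine 9, is the mark of constitutive heterochromatin. It is written by enzymes such as SETDB1 and the SUV39H pair and bound by HP1 proteins, and it keeps repeats, retroelements and clustered gene families such as olfactory receptor and zinc-finger genes silent. Much of it lies outside genes, in long domains, and peaks of this kind are usually named only by the nearest annotated gene, which need not be a gene they act on.

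The values are those of the authors' deposited table. For each peak it gives the log2 mean normalised reads of the knockout and of the wild-type libraries (called the level here). It also gives their log2 difference, the p-value of that difference and an FDR. The FDR is read here as the p-value adjusted for the number of peaks tested, but it did not follow the order of p. In the authors' deposited table the member near Gm25771 (p 0.000357) had no FDR below 1, while that near 1010001B22Rik (p 0.000374) had 0.345. The cause was not tested. The table lists peaks with a p of at most 0.05 and none with a p under 0.0001, and it has no values per library, so no spread between replicates could be computed and no test was made here. At an FDR under 0.05 there were 0 members and 0 listed H3K9me3 peaks in all (background 0%), while at an unadjusted p of at most 0.01 there were 547 members. Any peaks with a p under 0.0001 are left out of the list, so the count of 0 does not speak for them. Because no listed member reached that FDR, the members are called higher or lower by their levels, not changed. The depth of the libraries is not known from these files. Of the 11 smooth muscle markers checked, 0 were the nearest gene of a member, and 7 (Tagln, Smtn, Lmod1, Myocd, Cald1, Ldb3 and Synpo2) had a listed H3K9ac peak at the promoter. Of the markers of other cells, 1 of 4 endothelial genes (Pecam1), 2 of 4 leukocyte genes (Cd14 and Aif1) and 1 of 4 fibroblast genes (Pdgfra) had one. The tables hold only selected peaks, so these counts do not measure purity. At Cth, the deleted gene, 0 members were annotated. The nearest member lay 191 kb from it (chr3:157702118-157702799, nearest gene Gm33466), with a level of 4.17 in knockout and 1.54 in wild-type cells and a p of 0.0398 in the authors' deposited table, so the knockout could not be checked here.

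Most members lay far from promoters, but 8 overlapped the window from 250 bases before to 50 bases after the start of a RefSeq gene, although the authors' annotation places every member at least 3.01 kb from a start site. Of these 8, 5 held the whole window. The 5 whole windows are printed because they lie entirely within H3K9me3 peaks and differ in CpG, the dinucleotide that DNA methylation acts on in mammalian heterochromatin. They come from the RefSeq promoter table of GRCm38.p6, 5′ to 3′ on the strand of the gene, in lower case with every CG in capitals.
4930578G10Rik: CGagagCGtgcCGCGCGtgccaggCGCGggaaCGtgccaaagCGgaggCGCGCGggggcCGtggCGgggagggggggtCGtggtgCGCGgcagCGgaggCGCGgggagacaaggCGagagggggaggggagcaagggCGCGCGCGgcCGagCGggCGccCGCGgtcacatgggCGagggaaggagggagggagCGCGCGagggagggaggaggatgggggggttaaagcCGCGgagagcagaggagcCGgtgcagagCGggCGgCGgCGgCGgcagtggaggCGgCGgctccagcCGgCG
Gm3696: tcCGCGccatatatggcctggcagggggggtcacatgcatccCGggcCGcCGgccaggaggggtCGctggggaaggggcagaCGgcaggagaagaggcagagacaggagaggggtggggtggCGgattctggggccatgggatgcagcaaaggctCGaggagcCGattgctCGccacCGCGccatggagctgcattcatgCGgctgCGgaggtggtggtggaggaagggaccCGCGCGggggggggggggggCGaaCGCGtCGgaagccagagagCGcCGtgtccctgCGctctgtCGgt
Gm52481: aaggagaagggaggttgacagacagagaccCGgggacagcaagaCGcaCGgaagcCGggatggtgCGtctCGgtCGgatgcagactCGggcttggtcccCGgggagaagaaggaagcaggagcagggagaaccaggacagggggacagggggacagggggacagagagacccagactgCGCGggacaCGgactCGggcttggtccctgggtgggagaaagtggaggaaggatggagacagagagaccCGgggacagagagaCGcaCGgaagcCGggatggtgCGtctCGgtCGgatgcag
Gm46074: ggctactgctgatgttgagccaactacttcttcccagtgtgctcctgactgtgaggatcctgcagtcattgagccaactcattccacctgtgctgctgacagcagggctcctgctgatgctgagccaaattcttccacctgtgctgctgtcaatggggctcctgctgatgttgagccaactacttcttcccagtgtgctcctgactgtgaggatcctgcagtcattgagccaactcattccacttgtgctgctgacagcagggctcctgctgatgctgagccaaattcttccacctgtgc
Gm36844: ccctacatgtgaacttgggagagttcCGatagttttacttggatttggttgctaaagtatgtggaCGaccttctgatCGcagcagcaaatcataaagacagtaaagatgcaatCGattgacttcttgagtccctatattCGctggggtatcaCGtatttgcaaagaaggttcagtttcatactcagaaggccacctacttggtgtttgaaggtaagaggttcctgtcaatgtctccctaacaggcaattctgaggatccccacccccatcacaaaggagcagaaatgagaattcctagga

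The windows were Gm3696 (chr14:7105454-7105753, minus strand), 4930578G10Rik (chr4:42670040-42670339, plus strand), Gm52481 (chrY:90742479-90742778, plus strand), Gm46074 (chr8:20649078-20649377, plus strand) and Gm36844 (chr6:136454671-136454970, minus strand). The motif searched was CG, which reads the same on both strands. It occurs in 94.6% of the 32851 windows of the table, with a median of 7 per window. The window of 4930578G10Rik held 46 CG, and 98.6% of all windows held as many or fewer. Gm3696 held 26 CG (84.5%), Gm52481 20 (75.2%), Gm36844 6 (47.9%) and Gm46074 0 (5.43%). Base composition differed likewise, with 78.7% G and C in the 4930578G10Rik window, 70.3% in Gm3696, 64.7% in Gm52481, 54.0% in Gm46074 and 44.3% in Gm36844, against a median of 52.7%. Of the 5 peaks over these windows, 4 were higher and 1 lower in the knockout. The peak over Gm3696 had a level of 5.03 in knockout and 0.55 in wild-type cells, in the authors' deposited table (p 0.000718, FDR 0.522). Over 4930578G10Rik the levels were 5.01 in knockout and 0.86 in wild-type cells (p 0.00308 in the authors' deposited table). The peak over Gm52481 was 10569 bases long and had the highest level of any member, 12.13 in knockout and 8.97 in wild-type cells (p 0.0272 in the authors' deposited table). Over Gm46074 the levels were 8.44 in knockout and 6.66 in wild-type cells, again in the authors' deposited table (p 0.0429). The lower peak, over the window of Gm36844, had 0.92 in knockout and 4.02 in wild-type cells in the authors' deposited table (p 0.0234). The windows with the most and the fewest CG both lay under higher peaks.

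H3K9me3 was higher in knockout cells at 1414 members and lower at 1037. The higher share was 57.7% (95% Clopper-Pearson interval 55.7 to 59.7%, which covers counting error only and takes peaks as independent). Over all listed H3K9me3 peaks the background was 61.0% higher and 39.0% lower, so the split of the members is near that of the table. The other listed peaks had 63.8% higher (62.0 to 65.5%), with 69.8% at promoters, 61.3% in introns and 60.0% in intergenic regions beyond 100 kb. The share of higher members was thus the lowest among these annotations, and the interval of the members did not overlap that of the other listed peaks as a pool. It did overlap the intervals of intergenic peaks beyond 100 kb (55.4 to 64.5%) and of introns (58.9 to 63.7%). It did not overlap that of promoters (66.2 to 73.3%). The split can depend on how the authors normalised the libraries, a step not described in the sources used here.

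The median higher member had a log2 difference of 3.18, and the median lower member −3.03, where all listed peaks had 3.21 and −3.05. Single differences ran between 1.76 and 6.79 for higher members and between −2.15 and −4.78 for lower ones. The median member had 6.50 normalised reads over all libraries. Higher members had a median level of 3.64 in knockout and 0.35 in wild-type cells, and lower members had 0.22 in knockout and 3.44 in wild-type cells. At 264 lower members (25.5% of them) the knockout level was the lowest of the table, 0.747 reads, and at 435 higher members (30.8%) the wild-type level was the lowest, 0.732 reads. A difference against that level depends on how the authors set it.

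**Figure D1:**
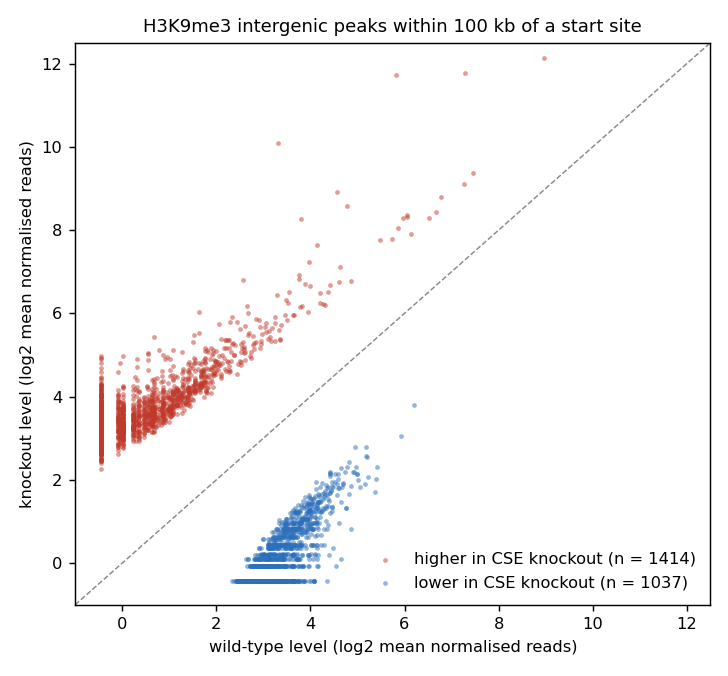
Each point is 1 of 2451 H3K9me3 intergenic peaks, with its wild-type level on the x axis and its knockout level on the y axis (both log2 mean normalised reads, from the authors' deposited table), red for the 1414 higher and blue for the 1037 lower in the knockout. The empty band along the dashed line of equal levels is where the authors' selection lists no peak, the points stacked at −0.45 and −0.42 lie at the lowest level of a genotype, and the members with the highest levels are all red.

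The balance of directions shifted with the strictness of the p-value. At a p of at most 0.01 there were 547 members (22.3% of them, background 25.1%), 390 higher (background 18.6%) and 157 lower (background 6.46%), so that 71.3% were higher. At a p of at most 0.001 there were 32 members (background 2.08%), 29 higher (background 1.80%) and 3 lower (background 0.279%). The same shift occurred over all listed H3K9me3 peaks, from 61.0% higher to 74.2% at a p of at most 0.01 and 86.6% at a p of at most 0.001. An FDR below 1 was given to 33 members (background 2.18%), 28 higher and 5 lower, and the smallest FDR was 0.219 among higher and 0.606 among lower members in the authors' deposited table. Because the listed FDR did not follow the order of p, these FDR counts do not rank the members by p.

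The direction of the members varied with peak length and level. Of the 113 members longer than 1000 bases, 106 were higher in the knockout and 7 lower (93.8% higher, interval 87.7 to 97.5%). Of the 231 members of at most 250 bases, 92 were higher and 139 lower (39.8%, 33.5 to 46.5%). The shares between were 49.4% at 251 to 350 bases, 57.9% at 351 to 500 and 68.2% at 501 to 1000, so the share of higher members went up at every step of length. The other listed peaks showed the same order, with 42.3, 56.3, 60.5, 73.4 and 93.1%. The order also stood among the members outside runs of neighbours, at 39.3, 48.3, 56.3, 64.8 and 94.4%.

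By level over all libraries, 38.4% of members up to a log2 level of 2 were higher in the knockout, 49.8% at 2 to 2.5, 57.5% at 2.5 to 3, 64.0% at 3 to 4 and 85.9% at 4 to 6. All 25 members above 6 were higher, 10 of them on chromosome 8, and 7 of the 25 were under 1 kb long. The other listed peaks showed the same order by level, with 46.0, 55.0, 62.4, 66.6, 88.7 and 97.8% higher (44 of 45 above 6). Long peaks collect more reads, so the orders by length and by level are not separate observations. Reads per kb did not give such an order, with 52.7, 63.9, 59.0 and 55.1% higher over 4 bins of equal member number in rising order.

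**Figure D2:**
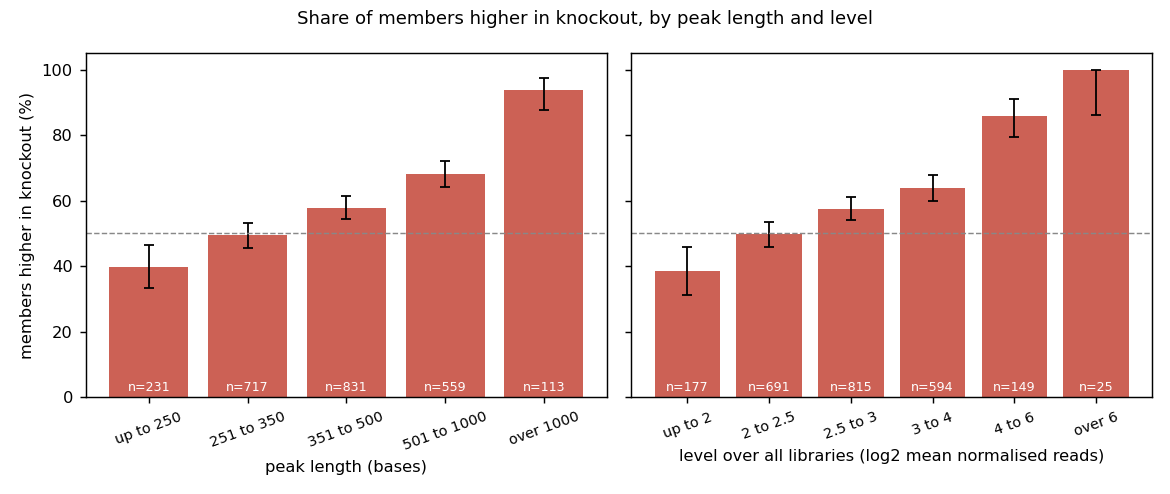
Bars give the percentage of members higher in the knockout by peak length in bases (left) and by level over all libraries in log2 mean normalised reads (right), with 95% Clopper-Pearson intervals, the number of members in each bar and a dashed line at 50%. The share goes up from 39.8% to 93.8% with length and from 38.4% to 100% with level.

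Shares of higher members differed little between distances to the start site when both sides were pooled. The members' median distance was 24.6 kb, and the nearest lay 3.01 kb away. Up to 10 kb from a start site 54.7% of 494 members were higher in the knockout, at 10 to 50 kb 57.9% of 1386 and at 50 to 100 kb 59.7% of 571, with overlapping intervals (50.1 to 59.1%, 55.3 to 60.6% and 55.6 to 63.8%). Upstream of the start site 57.2% of 1347 were higher and downstream 58.2% of 1104. Upstream members had 53.0% higher up to 10 kb (47.2 to 58.8%), 56.5% at 10 to 50 kb (52.8 to 60.1%) and 63.1% at 50 to 100 kb (57.5 to 68.5%). Downstream the shares were 57.1, 59.6 and 55.7%, with no such order. The difference between the sides was not tested. At the limit of the rule, the peaks just inside 100 kb were near Gmnc (99.6 kb, log2 difference −3.21), Gm43001 (99.7 kb, 3.75) and Gm25261 (99.9 kb, 3.94) in the authors' deposited table. Those just outside were near Gm6912 (100025 bases, −3.58), Fsip2 (100.2 kb, 2.80) and Gm18523 (100.8 kb, 3.20) in the authors' deposited table, so both directions stood on either side of the limit.

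The nearest annotated genes were mostly gene models of unknown function. Of the 2034 symbols, 1376 were found in the RefSeq gene table, and 1371 of those (99.6%) lay at the same position. Of the 1618 members with a matched nearest gene, 512 (31.6%) had a protein-coding one. The median member lay 89.6 kb from a protein-coding gene. RefSeq also placed 215 members (8.77%) inside a gene of some kind and 35 inside a protein-coding gene, although the annotation in the authors' deposited table calls them intergenic.

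The chromosomes differed widely in direction. Chromosome 6 had 54 higher and 159 lower members, or 25.4% higher (19.7 to 31.7%), chromosome 16 had 30.6% and chromosome 15 34.8%. At the other end, chromosome 13 had 98 higher and 18 lower members (84.5%), chromosome 8 had 113 higher and 21 lower (84.3%), chromosome 5 had 150 higher and 29 lower (83.8%) and the X chromosome had 54 higher and 15 lower (78.3%). More than 50% of members were higher on 15 of the 21 chromosomes and fewer on 6, and on 11 chromosomes the interval left out the overall 57.7%. Chromosome 2 held the most members, 217, with 46.5% higher. Chromosome 3, which carries Cth, had 59.8% higher. The other listed H3K9me3 peaks lay on the same side of 50% as the members on 20 of 21 chromosomes, for example with 29.7% higher on chromosome 6 and 84.3% on chromosome 13. Chromosome 15 was the exception, with 34.8% of members and 55.4% of the other peaks higher. Its 2 intervals did not overlap (26.8 to 43.5% and 46.7 to 63.8%). The gap was also wide on the Y chromosome (71.4% of 21 members and 90.9% of 11 other peaks), chromosome 14 (58.8% and 74.8%), chromosome 7 (66.0% and 80.8%) and chromosome 1 (50.3% and 64.7%). On each of these chromosomes the intervals of members and other peaks overlapped. The members lie in runs of neighbours, so these intervals are narrower than they would be for independent peaks.

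**Figure D3:**
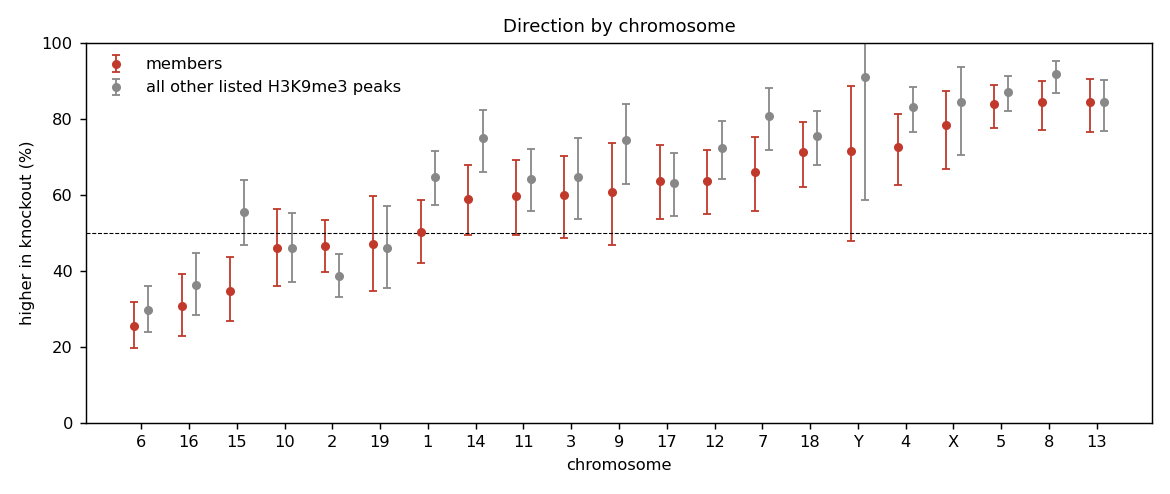
Points give the percentage of H3K9me3 peaks higher in the knockout on each chromosome, red for members and grey for all other listed H3K9me3 peaks, with 95% Clopper-Pearson intervals, ordered by the members' share. Members range from 25.4% on chromosome 6 to 84.5% on chromosome 13, and the grey points lie on the same side of the dashed line at 50% as the red ones on 20 of 21 chromosomes.

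Neighbouring members tended to have 1 direction, most often at short gaps. Of 198 neighbouring pairs with a gap of at most 10 kb, 169 shared a direction (85.4%, interval 79.6 to 90.0%). The share was 72.8% at 10 to 50 kb, 67.0% at 50 to 100 kb, 59.4% at 100 to 500 kb and at 500 kb to 1 Mb, 53.7% at 1 to 5 Mb and 57.0% of 86 pairs beyond 5 Mb, beside 61.8% over all 2430 pairs. Without chromosome 2 the share at up to 10 kb was 83.8%, and without the 9 runs of 10 or more members it was 73.6% of 110 pairs. What share unrelated neighbours would give was not computed. It would lie above 50%, because most chromosomes favoured 1 direction (25.4% higher on chromosome 6 and 84.5% on chromosome 13). Shares a little over 50% are therefore not read as a tie between neighbours.

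**Figure D4:**
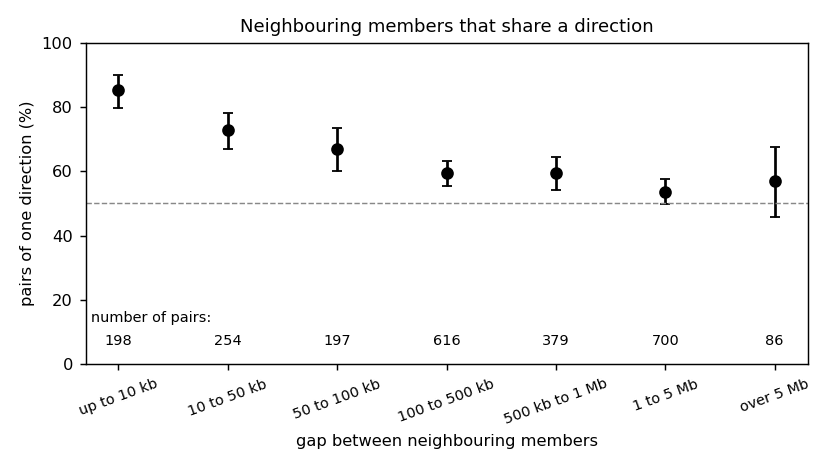
Points give the percentage of neighbouring pairs of members with the same direction, by the gap between them, with 95% Clopper-Pearson intervals and the number of pairs. The share is 85.4% at gaps of at most 10 kb and 53.7% at 1 to 5 Mb. The dashed line at 50% is a guide and not the share expected of unrelated neighbours, which was not computed.

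Members of 1 direction with gaps of at most 100 kb were joined into runs. There were 256 runs of 2 or more, which held 742 members (30.3%), while 1709 members stood alone. Of the members in runs 65.0% were higher in the knockout, and of those alone 54.5%. A run ends where the direction changes, so members of the more frequent direction fall into runs more often by definition. The gap between these shares is therefore not a separate result. The 22 runs of 5 or more held 217 members, and 15 of these runs were higher and 7 lower. The spans of these 22 runs also held 57 other listed H3K9me3 peaks, in introns, promoters and the like, which the rule had not used to build the runs. All 57 had the direction of their run, and 13 of them lay in the span of the Tshz2 run. In runs of 3 or 4 members this held for 6 of 6 such peaks and in runs of 2 for 4 of 5. For comparison, of all other listed peaks 38.5% were higher on chromosome 2, 87.1% on chromosome 5, 29.7% on chromosome 6 and 91.8% on chromosome 8. These chromosomes held the most runs of 5 or more, and their shares include the peaks inside the spans. The spans were chosen for members of 1 direction, and 85.4% of member pairs up to 10 kb apart shared a direction. The agreement of the other peaks in the spans is therefore not separate support for the runs. The spans of the 22 runs held 4 listed H3K9ac peaks, in 3 runs, all lower in the knockout. Over all listed H3K9ac peaks 77.2% were lower, and in the spans of runs of 2 members 7 of 11 were.

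The lower run with the most members lay beside Tshz2, a zinc-finger homeobox transcription factor, at chr2:169344033-169620187 (GRCm38). It held 30 members over 276 kb, named after Gm11011, Gm14249, 4930529I22Rik, Gm14250 and Gm34294. Their knockout levels had a median of 0.60 (−0.42 to 3.79), against 4.18 (3.04 to 6.20) in wild-type cells, and the median log2 difference was −3.22. All 43 listed H3K9me3 peaks in the span were lower. The second lower run, chr6:140128016-140334668, lay between Capza3, an actin-capping subunit of sperm, and Plekha5. It held 13 members with a median level of 0.44 in knockout and 3.90 in wild-type cells (median log2 difference −3.23). The third, chr2:169072583-169209867, had Zfp64, a zinc-finger gene, as its nearest protein-coding gene at 117 kb, and held 10 members with a median level of 1.11 in knockout and 4.01 in wild-type cells (−2.94).

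The higher run with the most members lay beside Adgrd1, an adhesion G protein-coupled receptor gene, at chr5:129206392-129346970. Its 20 members had a median level of 4.13 (2.88 to 6.48) in knockout and 0.51 (−0.45 to 4.20) in wild-type cells, with a median log2 difference of 3.24. All 25 listed H3K9me3 peaks in its span were higher. The run beside Tmem132e, which encodes a membrane protein of hair cells, covered chr11:82350658-82585075 with 17 members, at a median of 4.74 in knockout and 1.40 in wild-type cells (3.11). The run between Grm4, a metabotropic glutamate receptor gene, and Lemd2, an inner nuclear membrane protein gene, covered chr17:27287750-27414977 with 12 members near Mir7214, Gm49796 and Mir7218. Its median was 5.42 in knockout and 2.68 in wild-type cells (2.83). Peaks of a run differ in level, so the knockout and wild-type ranges overlapped in the Tshz2, Adgrd1 and Grm4 runs. They did not overlap in the Capza3, Zfp64 and Tmem132e runs.

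Other runs were chosen for mention after their values had been seen. On chromosome 2, further along from the lower runs near Tshz2 and Zfp64, higher runs lay beside Bmp7, a bone morphogenetic protein gene (10 members, chr2:172766506-172848150, median 4.65 in knockout and 1.46 in wild-type cells), and Tfap2c, an AP-2 transcription factor gene (7 members, median 4.13 in knockout and 1.02 in wild-type cells). A higher run of 9 members stood beside Bdkrb2, the bradykinin B2 receptor gene, on chromosome 12 (median 5.13 in knockout and 1.89 in wild-type cells), and all 18 listed peaks in its span were higher. Higher runs of 8 members stood beside Sdk1, a cell adhesion gene, and Zfp423, a zinc-finger transcription factor gene. On chromosome 6 a lower run of 8 members lay 119.8 kb from Pde3a, a cyclic nucleotide phosphodiesterase gene, and 182.9 kb from Aebp2, a Polycomb complex gene (median −0.07 in knockout and 3.58 in wild-type cells). Another of 6 members lay 26.6 kb from Pthlh, the parathyroid hormone-like hormone gene (0.16 in knockout and 3.25 in wild-type cells).

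**Figure D5:**
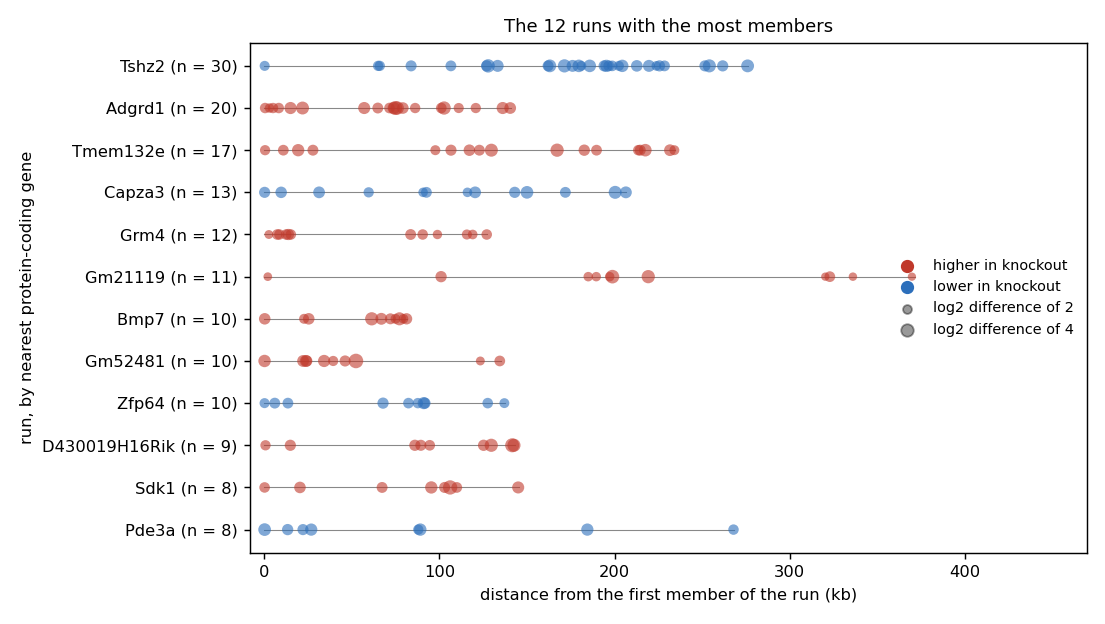
Rows are the 12 runs with the most members, named by the nearest protein-coding gene, with members at their distance in kb from the first member of the run, red for higher and blue for lower in the knockout, and with a larger point for a larger absolute log2 difference. The Tshz2 run holds 30 members over 276 kb and the Adgrd1 run 20 over 141 kb.

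Single members were ranked by p in each direction. The smallest p of a higher member belonged to a 903-base peak near Gm42863 and Cyp3a16, a cytochrome P450 gene (chr5:145490488-145491390), with 29.9 normalised reads in knockout and 0.732 in wild-type cells in the authors' deposited table (log2 difference 5.36, p 0.000124, FDR 0.219). Near Gm14273 and Fam210b a peak had a level of 4.92 in knockout and −0.45 in wild-type cells in the authors' deposited table (p 0.000178, FDR 0.255). The third, near Gm22773 in the Bmp7 run, had 6.02 in knockout and 1.64 in wild-type cells in the authors' deposited table (p 0.000264, FDR 0.302). The wild-type level was above the lowest of the table at this peak, so its difference of 4.38 does not rest on that level. A peak near Gm43001 in the Adgrd1 run had 4.97 in knockout and 0.01 in wild-type cells in the authors' deposited table (p 0.000277), and one near 1010001B22Rik and Zfp932 had 5.11 in knockout and 0.79 in wild-type cells (p 0.000374). The rest of the 10 were near Gm4739, Mid1-ps1, Gm25771, Sdk1 and Gm47796, with log2 differences of 4.68, 5.42, 4.77, 5.25 and 5.03 in the authors' deposited table. Of the 10 peaks, 7 lay in runs, 6 had wild-type cells at the lowest level and 9 had an FDR below 1.

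On the lower side the smallest p belonged to a peak near Gm48912 (chr14:46522722-46523162), 132.1 kb from Bmp4, a bone morphogenetic protein gene, with −0.42 in knockout and 4.36 in wild-type cells in the authors' deposited table (p 0.000359, FDR 1). It was followed by a peak 17.3 kb from the start of Kcnc2, a voltage-gated potassium channel gene, at −0.42 in knockout and 4.07 in wild-type cells in the authors' deposited table (p 0.000675). The peak near Ccl17, a chemokine gene, lay 12.3 kb from Cx3cl1, another chemokine gene (chr8:94794749-94796119). It had 4.06 normalised reads in knockout and 41.9 in wild-type cells, a log2 difference of −3.37, a p of 0.00101 and the smallest FDR of a lower member, 0.606, in the authors' deposited table. At this peak neither genotype was at the lowest level. Of the other 7, 4 were near Gm14249 and 1 near Gm34294, all in the Tshz2 run, with log2 differences from −4.06 to −4.60 in the authors' deposited table. The last 2 were near Gm47807 (−4.20) and Gm3961 (−4.11) in the authors' deposited table. Of these 10 lower peaks, 7 lay in runs, 3 had knockout cells at the lowest level and 3 had an FDR below 1.

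The genes named by the most members were those of the runs: Gm43001 with 14 members, all higher, Gm11011 with 14, all lower, Gm14249 with 11, all lower, Gm22773 with 10, all higher, and Gm24612, beside Tmem132e, with 8, all higher. In contrast, 1763 of the 2034 symbols had 1 member and 60 had 3 or more.

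The members with the highest levels varied widely in length and in reads per kb. A peak near Mid1-ps1 on the Y chromosome (chrY:90736670-90747238), which spans the Gm52481 window, had 4482 normalised reads in knockout and 501 in wild-type cells in the authors' deposited table. Near Gm11668 (chr11:109011508-109012225) a peak had 3517 reads in knockout and 155 in wild-type cells in the authors' deposited table, and near Gm25352 (chr3:5860328-5860892) a peak had 3373 in knockout and 56.5 in wild-type cells. A 380-base peak near Hic2, a transcriptional repressor gene (chr16:17222163-17222542), had 1097 reads in knockout and 9.99 in wild-type cells and the largest log2 difference of any member, 6.79, in the authors' deposited table (p 0.00304, FDR 1). The last 3 were under 1 kb, and reached 4898, 5971 and 2888 reads per kb in the knockout, where the median member had 23.1 in knockout and 5.69 in wild-type cells. The sources used here do not say how reads that match several places were counted. On chromosome 8, 6 of the 25 members above a log2 level of 6 belonged to a run of 11 members (chr8:20328212-20699925, near Gm21119), whose median was 7.76 (3.89 to 9.38) in knockout and 5.47 (−0.45 to 7.46) in wild-type cells. Another 3 belonged to a run of 5 near Gm21769 and Gm20778, with a median of 7.12 (3.86 to 8.36) in knockout and 4.63 (1.17 to 6.51) in wild-type cells.

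By class of nearest gene, taken from the symbols, predicted genes named by a number led with 1704 members, 996 higher and 708 lower (58.5% higher, background 61.0%). Genes with Rik symbols had 86 higher and 55 lower members, and all listed peaks near them (members included) had 230 higher and 108 lower. Olfactory receptor genes, which are expressed in smell neurons, had 18 higher and 30 lower members (37.5% higher, interval 24.0 to 52.6%), and all listed peaks near them split 38 higher and 40 lower. Examples were Olfr1254 (3.82 in knockout and −0.45 in wild-type cells) and Olfr507 (−0.06 in knockout and 3.95 in wild-type cells) in the authors' deposited table. Vomeronasal receptor genes, for pheromones, had 17 higher and 12 lower members, beside 32 higher and 25 lower of all listed peaks near them. The member near Vmn2r97 had 4.13 in knockout and −0.45 in wild-type cells in the authors' deposited table. MicroRNA genes had 17 higher and 3 lower members at 13 genes, and all listed peaks near microRNA genes split much the same way, 48 higher and 9 lower. Of the higher members, 6 near Mir7214 and at least 1 near Mir7218 lay in 1 run, the Grm4 run. The member near Mir7218 of smallest p had 5.87 in knockout and 2.85 in wild-type cells in the authors' deposited table.

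The smaller classes had at most 16 members each. Ion channel genes had 8 higher and 8 lower members, beside 40 higher and 30 lower of all listed peaks near them. Among the higher members was Grik3, a kainate receptor gene (4.47 in knockout and −0.45 in wild-type cells in the authors' deposited table). Solute carrier genes had 2 higher and 8 lower members, where all listed peaks near them had 22 higher and 21 lower. Homeobox, Fox and Sox factors had 8 higher and 1 lower members, including Foxi1 and Sox17, an endothelial factor gene (3.71 in knockout and 0.63 in wild-type cells in the authors' deposited table). All listed peaks near such factors split the other way, 20 higher and 68 lower, but 63 of the 68 were named after Tshz2, and 0 of those 63 are members. Without Tshz2 the split was 20 higher and 5 lower. Inflammation genes had 4 higher and 2 lower members, beside 8 higher and 7 lower of all listed peaks near them. Ccr1, a chemokine receptor gene, had 4.30 in knockout and −0.45 in wild-type cells, and Cxcl13, a chemokine gene, 3.63 in knockout and −0.45 in wild-type cells in the authors' deposited table. Matrix genes had 2 higher members, both near Adamts3, a procollagen protease gene, and 2 lower, among them 1 near Mmp1b, a collagenase gene (−0.06 in knockout and 3.32 in wild-type cells in the authors' deposited table). Of all listed peaks near matrix genes, 11 were higher and 6 lower. Cytochrome P450 genes had 4 higher and 3 lower members (all listed peaks 7 and 8). Keratin genes had 2 higher and 4 lower (all listed 3 and 5), and Zfp genes 4 higher and 1 lower (32 and 17). Cadherin genes had 3 higher and 2 lower (all listed 13 and 4). Defensins had 1 higher and 2 lower (all listed 1 and 2), and lectin receptors 1 higher and 1 lower (2 and 7). The single serpin member, near Serpina3j, was higher (all listed 5 and 1). Smooth muscle contractile genes, hydrogen sulfide and cysteine metabolism genes and MHC genes had 0 members. No class was tested, and a class of few members near 1 cluster of genes is not a sample of independent peaks.

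Listed peaks of the active marks were set beside the members. Their tables hold only selected peaks, so the counts do not say how often H3K9ac or H3K4me3 occurs at the members. No member (0 of 2451) overlapped a listed H3K9ac peak, and 45 (1.84%) had one within 10 kb, against 2.50% of the other listed H3K9me3 peaks. Of the 45, 19 were higher and 26 lower for H3K9me3, where 57.7% of all members were higher. The other listed H3K9me3 peaks with an H3K9ac peak within 10 kb split 39 higher and 34 lower, where 63.8% of all of them were higher. Members with one within 100 kb split 165 higher and 170 lower. These splits were not tested. At the promoters of the nearest genes, 41 genes had a listed H3K9ac peak, of which 32 (78.0%) were lower in the knockout, beside 78.1% of all 3051 genes with such a peak (background 77.2% lower and 22.8% higher over listed H3K9ac peaks), so the acetylation at these genes split as in its whole table. Each gene was counted by its member of smallest H3K9me3 p. Unc5b, counted as higher, also had a lower member (2.14 in knockout and 4.59 in wild-type cells in the authors' deposited table). With H3K9me3 higher, H3K9ac was lower at 16 genes and higher at 2. With H3K9me3 lower, H3K9ac was lower at 16 genes and higher at 7.

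The gene of smallest H3K9me3 p among them was Gm21182 on chromosome 8, with H3K9me3 levels of 5.42 in knockout and 0.67 in wild-type cells and H3K9ac levels of 4.35 in knockout and 6.35 in wild-type cells (H3K9ac FDR 0.00967) in the authors' deposited table. At Pctp, a phosphatidylcholine transfer protein gene, H3K9me3 had 4.17 in knockout and 0.22 in wild-type cells and H3K9ac 4.86 in knockout and 7.13 in wild-type cells (FDR 0.177) in the authors' deposited table. The marks went opposite ways at both. At Cdh18, a cadherin gene, both marks were lower, with H3K9me3 at 0.20 in knockout and 3.98 in wild-type cells and H3K9ac at 6.73 in knockout and 7.78 in wild-type cells (FDR 0.0285) in the authors' deposited table. Oxct1, a ketone body enzyme gene, and Gm30524 were also lower for both marks, and Gm49704 was higher for both, with H3K9ac FDR of 0.238, 0.295 and 0.258 in the authors' deposited table.

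The H3K4me3 table gives no direction. Its peaks overlapped 1 member, near Gm50357 (chr19:61266496-61267295, 7.64 in knockout and 4.14 in wild-type cells for H3K9me3 in the authors' deposited table), and 4 members had one within 10 kb. The nearest genes with a listed H3K4me3 promoter peak were Neto1, Kbtbd8, Pctp, Gm4419, Lbx1, Epb41l3, Pole4 and Mapk4, 4 with a higher and 4 with a lower H3K9me3 member.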

How the data were processed

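The deposited tables give, per the file headers, 1 row per selected peak with its position, annotation and distance to a start site. For H3K9me3 and H3K9ac the authors also deposited mean normalised reads on a log2 scale (for each genotype and for both), the log2 fold change of knockout over wild type, its p-value and its FDR. The submitters' processing notes name CASAVA 1.4 and mm9. Aligner, peak caller, normalisation and the test of difference were not given in the sources used here. Peak positions on X and Y reach 170824933 and 90838039, past the ends of those chromosomes in mm9, and gene positions match RefSeq GRCm38.p6, so coordinates are read as GRCm38. The 36 samples comprise 18 immunoprecipitated and 18 input libraries in 12 groups of 3, but the tables hold no value per library and their depth is unknown. The planned fits on such values were therefore replaced by counts, medians and exact Clopper-Pearson intervals of 95%, with no test. The deposited p-values reflect the spread between these libraries, which may be technical.

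Direction is the sign of the knockout minus the wild-type level, and the deposited log2 fold change equalled that difference within 0.01. Lengths are end minus start plus 1. Runs join neighbouring members of 1 direction with gaps of at most 100 kb. Values were computed with scipy 1.17.1, pandas 2.3.3 and numpy 2.4.6 in Python 3.11.15 and drawn with matplotlib 3.10.9, after a check of the code on simulated peaks. The members and gene lists were chosen with earlier results of these data known. Genes were named by a rule: per direction the 10 members of smallest p and the 3 runs with the most members, up to 3 examples per gene class, the 5 genes with the most members, the 3 peaks on each side of the 100 kb limit, and up to 6 genes for the other marks. What else is named was picked with its values in view: other runs, the members of highest level, the peaks over promoter windows and the genes with H3K4me3. Alternatives were stricter p, other levels, chromosomes, distances and gaps, and runs or genes counted once.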

Additional observations from a re-analysis of the deposited data

How the results depend on the processing

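The share of higher members was 57.7% as reported and stayed within its interval under 7 of 10 alternatives. It moved to 71.3% at a p of at most 0.01, 90.6% at a p of at most 0.001 and 65.2% with a level of at least the median of all listed peaks. The median log2 difference of higher members (3.18) moved to 3.93 at a p of at most 0.01, 4.64 at a p of at most 0.001, 2.97 without peaks at the lowest level of either genotype, 3.01 with a level of at least the median and 3.27 with runs counted once. That of lower members (−3.03) moved to −3.82, −4.49, −2.91 and −2.91 under the first 4 of these. Leaving out the lowest level removes by construction the differences that rest on it. For the others, the cause was not tested. No direction reversed. The 742 members in runs became 542 with gaps of at most 50 kb, 940 with gaps of at most 200 kb and 1005 whatever the direction. The 45 members with an H3K9ac peak within 10 kb became 177 within 50 kb and 5 with the peaks of both marks limited to a p of at most 0.01, of 547 members left. No paired analysis was possible because the tables hold no values per library, and leaving out single libraries was not run for the same reason. Peaks with a p over 0.05 or under 0.0001 are not listed, so neither the share of all H3K9me3 peaks that differed nor the levels of unlisted peaks are known.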
